A study of Mus musculus with 12 samples.

Results

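The comparison described here set mouse embryonic stem (ES) cells that had been held under mTOR inhibition (mTORi) for 144 h against the same cells before treatment. It rests on 4 of the 12 RNA-seq libraries of the series, namely both libraries of KH cells at 0 h and both at 144 h, which were chosen by their labels. Out of 54446 gene identifiers, 15423 genes were tested, whose mean over these 4 libraries reached 1 TPM (a length-corrected share of each library's transcripts). KH cells served as the wild type. They received no inhibitor at 0 h and the mTOR kinase inhibitor INK128 until collection at 144 h. The labels place the name E14 before KH, whereas the methods of the study describe the line as KH2 and grow it on a layer of mitotically inactive feeder fibroblasts. Single cells were then sorted by flow cytometry before RNA extraction, according to the same methods. KH libraries at 72 h and libraries of the DNMT3ABKO line, in which both de novo methyltransferases, Dnmt3a and Dnmt3b, are missing, entered the same model and are used below for named genes, for sums over marker lists and for a comparison by gene length. No untreated culture was collected at 144 h, so mTORi and time in culture cannot be told apart.

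The mTOR kinase couples nutrients and growth factors to protein, lipid and nucleotide synthesis. It acts in 2 complexes, and its first complex, at the surface of lysosomes, also holds the transcription factors Tfe3 and Tfeb in the cytoplasm while nutrients are plentiful. Inhibition of mTOR brings ES cells and blastocysts into a slow, reversible state that resembles embryonic diapause, in which growth is reduced while pluripotency is kept. The comparison asks what the transcriptome of wild-type cells looks like after this state has been held for days.

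TPM values do not show the read depth, which is unknown here. At 1 TPM or more, 15195 to 15207 genes were found per library. Replicates correlated with r of 0.993 at 0 h and 0.994 at 144 h over all tested genes, which are not independent replicates. The study describes its experiments as repeated independently, but the labels give these libraries only a replicate number. The p-values measure the spread between these samples, which may be technical. Replicate 1 at 0 h stood apart from the other libraries in its RNA composition. Protein-coding genes made up 65.2% of its TPM, against 70.1% in replicate 2 at 0 h and 68.4% and 68.3% at 144 h, and the signal recognition particle RNAs Rn7s1 and Rn7s2 made up 7.19%, against 5.03%, 4.22% and 3.93%. Results that depended on this library are given with and without it.

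In total, 8050 genes differed between 144 and 0 h (limma, Benjamini-Hochberg adjusted p under 0.05), which is 52.2% of those tested. Of these, 4222 were higher at 144 h (27.4% of all tested genes) and 3828 were lower (24.8%). The median log2 fold change of all tested genes was 0.04, so the shares given for gene groups below are to be read against this background. TPM values sum to the same total in every library, so these counts cannot show a change in total RNA. With spike-in normalisation, the study reported a global fall of the transcriptome under mTORi. Higher and lower, or rise and fall, refer here to shares of a library. Among changes of at least 2-fold the balance was different, with 575 genes higher (3.73%) and 1052 lower (6.82%). Without replicate 1 at 0 h, 3106 genes were higher and 3563 lower, so the small excess of higher genes rested on that library, whereas the excess of lower genes past 2-fold did not (545 higher and 1133 lower). The libraries of both groups did not overlap for 78% of all genes tested.

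**Figure D1:**
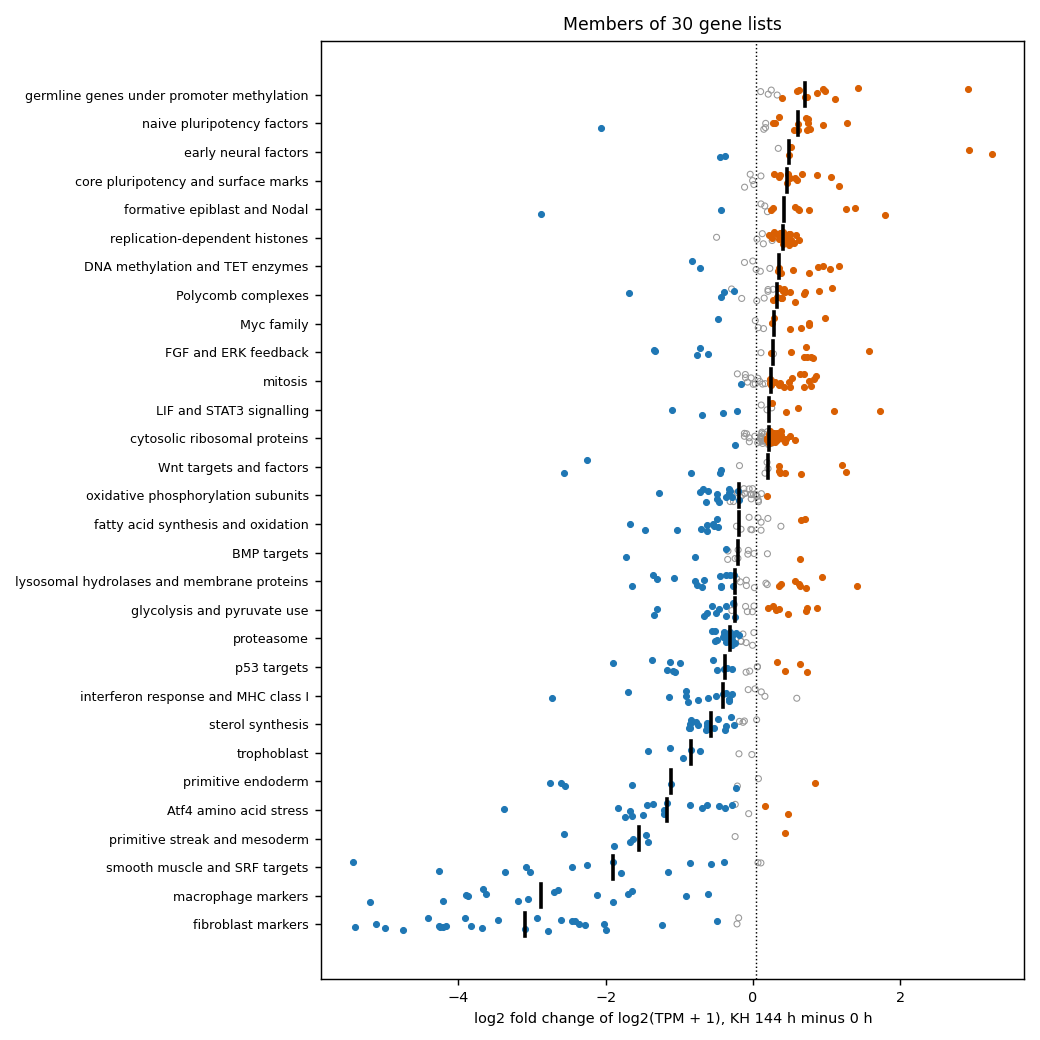
Log2 fold change on the log2(TPM + 1) scale (x axis, KH 144 h minus KH 0 h, 2 libraries each) for every tested member of 30 gene lists (y axis). Filled points are genes called higher (orange) or lower (blue) at an adjusted p under 0.05, open grey points were not called, black bars mark the median of a list and the dotted line the median of all tested genes (0.04). Fibroblast, macrophage and smooth muscle lists lie furthest to the left, and naive pluripotency, germline and histone lists lie mostly to the right.

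The label of the cells was checked against marker genes first. Pou5f1, the central transcription factor of pluripotency, stood at 843 and 863 TPM at 0 h and 1100.2 and 1099 TPM at 144 h. Sox2, its partner, stood at 208 and 225 TPM and 331 and 323 TPM, and Nanog at 189 and 212 TPM and 248 and 245 TPM. These ES cell genes were abundant in all 4 libraries. The libraries also held RNA of genes that mark other cell types, and this portion differed between the groups. The 29 fibroblast markers summed to 3981 and 4394 TPM at 0 h and to 1301 and 1243 TPM at 144 h, and 25 of the 27 tested members fell, none rose and the median log2 fold change was -3.09. Most of what remained at 144 h came from Fn1 (526 and 440.2 TPM), Spp1 (459 and 485 TPM) and Vim (139.9 and 145 TPM). Of these, Fn1 changed little against 0 h (-0.22), whereas Vim fell clearly (-2.03). The highest log2 fold change of any tested member was -0.20. The 19 macrophage markers summed to 367 and 402 TPM at 0 h, 281 and 273 TPM at 72 h and 42.5 and 41.3 TPM at 144 h. All 16 tested macrophage members were lower at 144 h (median -2.88), and 15 of the 19 listed lay under 1 TPM in both libraries at 144 h. Members that low at 144 h could pass the filter only through their values at 0 h, so the filter fixed their direction. The sums hold all 19 listed genes and do not depend on the filter. In a bulk sample, fewer cells of a type and less RNA per cell cannot be told apart. Because TPM values are shares, the loss of this RNA and every change of an ES cell gene are measured on the same scale, and its part in the results below was not tested. Of 6 tested endothelial genes, 2 were higher and 1 was lower, and their sums were 54.7 and 60.2 TPM at 0 h and 61.9 and 62.6 TPM at 144 h.

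**Figure D2:**
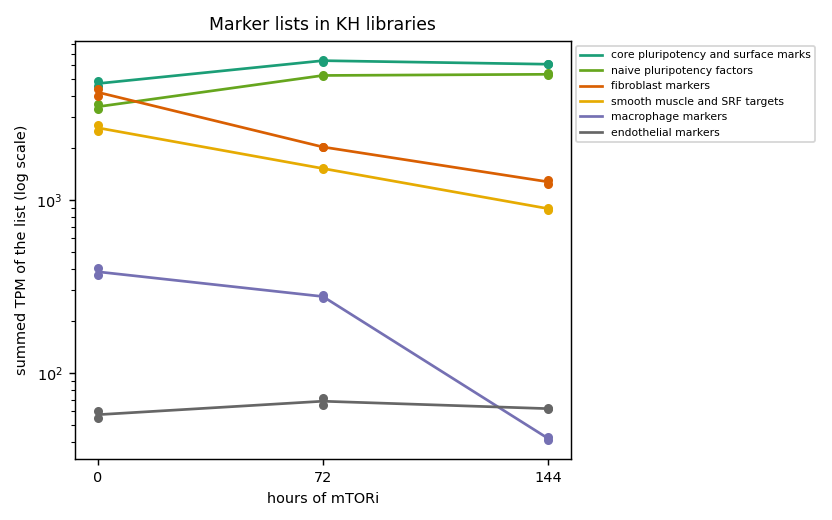
Summed TPM (y axis, log scale) of the naive pluripotency, core pluripotency, fibroblast, smooth muscle, macrophage and endothelial lists in each KH library at 0, 72 and 144 h (x axis), with a point for each of the 2 libraries per time point and a line through their means. The fibroblast sum went from 3981 and 4394 TPM at 0 h to 1301 and 1243 TPM at 144 h, and the macrophage sum stood at 281 and 273 TPM at 72 h and 42.5 and 41.3 TPM at 144 h.

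Many of the genes with the largest falls are known from fibroblasts, macrophages or smooth muscle. The cell of origin of their RNA was not tested. Col1a1, a chain of type I collagen and the most abundant collagen of fibroblasts (ENSMUSG00000001506.10, chromosome 11, 94936224 to 94953042, mm10), stood at 372 and 366 TPM at 0 h and 10.7 and 8.63 TPM at 144 h. The 144 h libraries lay at the bottom of the range, 38.1-fold under the mean at 0 h, and the log2 fold change was -5.12 ± 0.12 (SE; limma adjusted p = 3.47e-09). Ly6a, which encodes the surface antigen Sca-1, had almost vanished, from 55.4 and 61.5 TPM to 0.314 and 0.484 TPM (log2 fold change -5.41). Actg2, the enteric smooth muscle actin, fell from 102 and 114 TPM to 0.965 and 2.24 TPM, the largest fall of all named genes at -5.43. Among the other genes at the bottom of the ranking were the fibroblast marker gene S100a4 and the collagen and matrix genes Col3a1, Col1a2, Postn, Col5a2, Col6a3, Col5a1 and Lox, with log2 fold changes from -4.99 to -3.91. The macrophage genes Lyz2 (lysozyme) and C1qa (a complement chain) fell as well (log2 fold changes -5.20 and -4.22). Lyz2 stood at 175 and 184 TPM at 0 h, still at 104 and 104 TPM at 72 h, and at 4.21 and 3.66 TPM at 144 h. Rhox5, a homeobox gene of the X chromosome that ES cells express, was the exception among the lowest genes. It went from 122 and 119.7 TPM to 7.95 and 5.79 TPM (log2 fold change -3.97, adjusted p = 1.51e-08), and its value at 72 h was intermediate at 33 and 35.5 TPM.

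Genes of the smooth muscle cytoskeleton under serum response factor fell with the fibroblast genes. Of 15 tested members 13 were lower and none higher (median -1.91). Acta2, smooth muscle actin, went from 529.8 and 615 TPM through 241 and 229.9 TPM at 72 h to 28.5 and 29.1 TPM, and Tagln (transgelin), from 316 and 363 TPM to 32.8 and 31.1 TPM. The general cytoskeletal genes Flna and Srf, serum response factor itself, did not pass the test (0.07 and 0.11). The promoter of Myl9, a myosin light chain that fell by 3.02, is shown as an example of the sequence this group is known for (RefSeq, GRCm38.p6, chr2:156775214-156775513, plus strand), with capitals on the match to the CArG box, the binding sequence of serum response factor.
Myl9: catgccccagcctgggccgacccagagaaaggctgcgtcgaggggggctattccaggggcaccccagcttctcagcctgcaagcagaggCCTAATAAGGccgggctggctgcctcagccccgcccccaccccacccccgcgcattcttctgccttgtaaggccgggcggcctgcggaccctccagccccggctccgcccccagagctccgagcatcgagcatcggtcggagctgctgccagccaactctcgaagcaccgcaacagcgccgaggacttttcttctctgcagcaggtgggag
A CArG box on either strand stood in the promoter windows of 4 of the 12 smooth muscle genes that had a RefSeq promoter, against 1.65% of all 9978 tested genes with a promoter and 3.41% of those that fell at least 2-fold.

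Among genes that rose most, several are known from the nervous system or from germ cells. Capn3, a muscle calpain, led the ranking (ENSMUSG00000079110.11, chromosome 2, 120456019 to 120504913). It stood at 0.680 and 1.09 TPM at 0 h and 17.6 and 19.5 TPM at 144 h, with all treated libraries far above the untreated (log2 fold change 3.38 ± 0.11 SE, adjusted p = 1.15e-08). Sox1, a transcription factor of the early neural plate, rose from 0.492 and 0.521 TPM through 5.66 and 5.50 TPM at 72 h to 13.3 and 13.4 TPM (3.25, adjusted p = 7.48e-09). Pax6, another early neural factor, rose from 1.80 and 2.51 TPM through 7.09 and 8.40 TPM to 22 and 24 TPM (2.94). In the comparison of 144 with 72 h, in which 7.34% of all genes were higher and 15.7% lower, both genes were still higher, by 1.12 and 1.46 on the log2 scale (adjusted p = 2.82e-05 and 0.000202). Stra8, the gene that responds to retinoic acid at the entry into meiosis, stayed low until 72 h (1.59 and 1.55 TPM at 0 h and 3.07 and 3.47 TPM at 72 h) and then reached 18 and 18.8 TPM. Its step from 72 to 144 h was 2.19 (adjusted p = 1.72e-06), most of the total of 2.92. The other genes at the top were Halr1 (a long noncoding RNA of the HoxA region), Prmt8 (an arginine methyltransferase of neurons), Cntfr (the receptor of ciliary neurotrophic factor), Mir124a-1hg (host of the neuronal miR-124), Platr7, Slc47a1, Nphs1 (nephrin), Igsf21, A2m, Sall3 and Atp1a4, with log2 fold changes from 2.81 to 2.09. Halr1 was the most abundant of them, at 20.2 and 22.8 TPM at 0 h and 151 and 162 TPM at 144 h. Nphs1 and Platr7 were lower at 144 than at 72 h (-0.30 and -0.34, adjusted p = 0.0114 and 0.0174).

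The abundant RNA Rn7sk (7SK), a regulator of transcription elongation, went from 3.09% and 2.76% of all TPM to 4.02% and 4.06%. With small RNAs and predicted genes left out, the largest gains in TPM were made by genes of translation and by an ES cell marker. Eef1a1, the main elongation factor, went from 6954 and 7664 TPM to 10877 and 11025 TPM and gained most among the genes ranked. Dppa5a, an RNA-binding protein of naive ES cells, followed with 1864 and 1959 TPM and 3209 and 3163 TPM. At 72 h the values were 10867 and 10762 TPM for Eef1a1 and 2879 and 2855 TPM for Dppa5a. The ribosomal protein genes Rps24, Rpl13a, Rps15 and Rps27, the elongation factor Eef2 and the histone gene Hist1h2br completed the 8 largest gains. Hist1h2br has near-identical copies, and its single value is uncertain. On the side of losses, Ptma (prothymosin alpha) went from 2657 and 2650.0 TPM to 1879 and 1882 TPM and Ldha (lactate dehydrogenase A) from 1045 and 1166 TPM to 447 and 449 TPM. Actb, a gene often used for normalisation, stood at 4057 and 4374 TPM and 3540.1 and 3534 TPM, a log2 fold change of -0.25 (limma adjusted p = 0.0128). This call was lost without replicate 2 at 0 h (-0.20) and without either library at 144 h (-0.25 both). The remaining large losses were those of the adhesion protein gene Thbs1 (-3.38), Acta2, Rpl41 (-0.45), the chromatin protein gene Hmga1 (-0.86) and Vim (-2.03).

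Naive pluripotency factors, which maintain the preimplantation state, were higher after 144 h. Of the 17 tested, 13 rose, 1 fell and 3 did not pass the test, with a median log2 fold change of 0.61. The nuclear receptor gene Nr0b1 stood at 56.9 and 58.6 TPM at 0 h and 139.9 and 143 TPM at 144 h and rose most (1.28 ± 0.06 SE, adjusted p = 1.28e-07). Esrrb, a nuclear receptor that maintains self-renewal, went from 218 and 231 TPM to 378 and 313 TPM (0.61), and Klf4 went from 82.8 and 98.5 TPM to 155 and 150.3 TPM (0.75). Klf5 rose by 0.75 and Tbx3 by 0.61. The call of Nanog (0.30) was lost without replicate 1 at 0 h (0.22, limma adjusted p = 0.233), without either library at 144 h (0.29 and 0.31) and with the replicate number as a block (limma adjusted p = 0.0523). The rise was not uniform among the factors. Klf2 (0.15), Prdm14 (0.17) and Tfcp2l1 (0.17) were not called at 144 h, and Klf2 and Prdm14 were lower than at 72 h (log2 differences -0.45 and -0.96, adjusted p = 0.0192 and 0.000361). Prdm14 had stood at 10.3 and 11 TPM at 72 h and returned to 5.01 and 4.95 TPM, against 3.76 and 4.95 TPM at 0 h. Dppa3, a maternal factor that protects against DNA methylation, was the sole member that fell. Its libraries stood at 108 and 113 TPM at 0 h and 23.5 and 27.8 TPM at 144 h (log2 fold change -2.07, adjusted p = 2.08e-07).

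Core pluripotency genes showed a similar picture. Of 17 tested, 12 rose and none fell (median 0.46). Zfp57, which guards imprints at methylated DNA, rose most, from 160.0 and 175 TPM to 363 and 394 TPM (1.17), after 499 and 497 TPM at 72 h. Tdgf1, the Nodal co-receptor, went from 345 and 384 TPM to 755 and 770.3 TPM (1.06). Pou5f1 rose by 0.37 and Sox2 by 0.59. The smallest differences were those of Utf1 (0.01), Trim28 (-0.01) and Cd9 (-0.04), none of them called. Summed over the list, core genes made up 4568 and 4833 TPM at 0 h and 6066 and 6093 TPM at 144 h, and naive genes 3329 and 3579 TPM and 5387 and 5246 TPM. Both sums were higher at 144 h in the same libraries in which the fibroblast and macrophage sums were lower.

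Genes of the LIF pathway, which sustains naive cells through Stat3, moved in both directions. The ligand gene Lif fell from 6.27 and 6.88 TPM to 2.49 and 2.56 TPM (-1.10), and the kinase genes Jak1 and Jak2 fell (-0.40 and -0.70). The fibroblast sum fell in the same libraries, and whether the Lif transcripts came from ES cells was not tested. The receptor gene Lifr rose (0.61), as did Stat3 (0.45). Of the targets, Gbx2 went from 8.74 and 11.5 TPM to 34.4 and 36.8 TPM (1.73) and Pim1 from 77.3 and 83.4 TPM to 169 and 179 TPM (1.10). In all, 5 of 12 tested members were higher and 4 lower, against 27.4% and 24.8% of all genes.

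**Figure D3:**
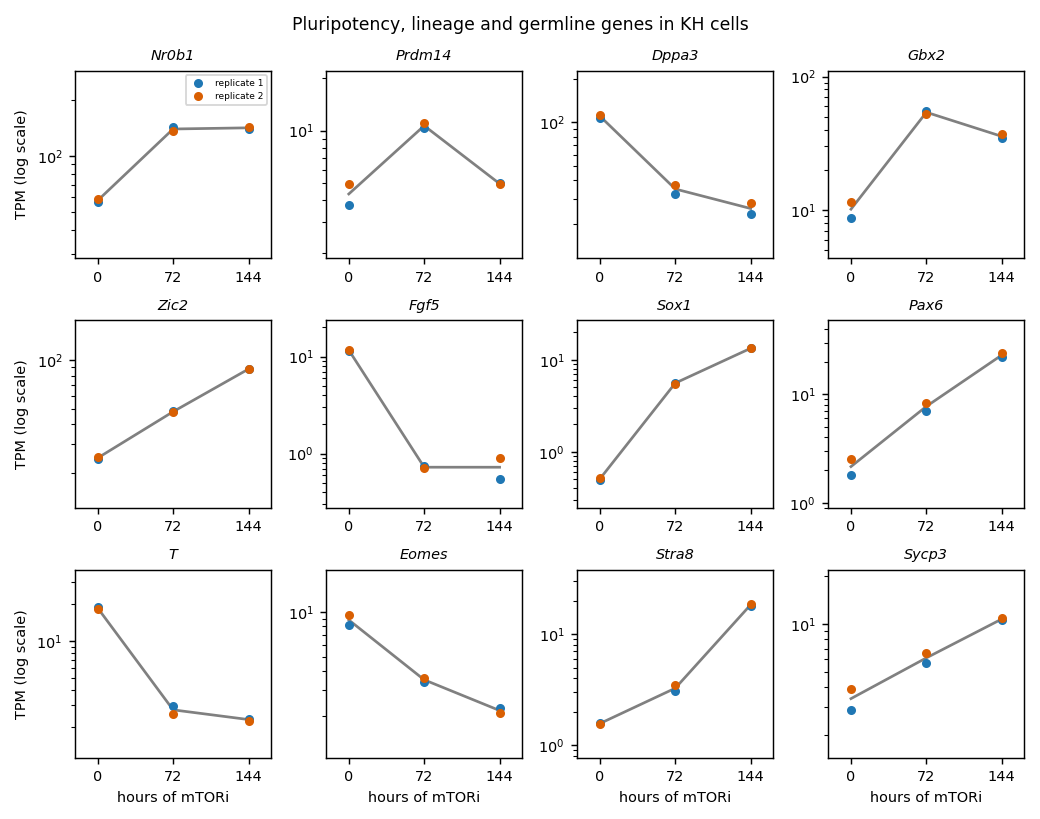
TPM (y axis, log scale) in each KH library at 0, 72 and 144 h (x axis) for 12 genes of pluripotency, lineage and germ line, with a point per library and a line through the mean of the 2 libraries. Sox1, Pax6 and Zic2 were higher at each later time, Stra8 rose mainly after 72 h, T, Fgf5 and Dppa3 were already low at 72 h, and Prdm14 was highest at 72 h.

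Lineage genes moved in different directions. Of 14 tested genes of the formative epiblast, the stage that follows naive pluripotency, and of Nodal signalling, 9 rose and 2 were called lower (median 0.42). The zinc finger gene Zic2 rose from 24.3 and 25.1 TPM through 48.1 and 47.5 TPM to 87.8 and 87.9 TPM (1.79), Sox3 from 2.93 and 2.89 TPM to 9.35 and 9.08 TPM (1.39) and Lef1, an effector of Wnt signalling, from 10.2 and 11.3 TPM to 27.1 and 27.4 TPM (1.26). Fgf5, a growth factor gene and a classical marker of the same stage, moved the opposite way, from 11.5 and 11.8 TPM to 0.553 and 0.893 TPM (-2.88). Otx2 was called lower (-0.43), a call that was lost without replicate 2 at 0 h (-0.26, limma adjusted p = 0.21) or without either library at 144 h (-0.44 and -0.42). Members of this list that mark the same stage thus did not move together. Of 16 early neural factors, 7 were abundant enough to be tested. Sox1 and Pax6 rose most, Neurod1 (0.51) rose less, and the neural cytoskeleton genes Nes (-0.45) and Tubb3 (-0.38) fell. 9 of the listed neural genes, among them Neurog2, stayed under 1 TPM in both libraries at 144 h.

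Genes of the primitive streak and mesoderm fell. Of 8 tested, 6 were lower and 1 higher (median -1.54). Of the 14 listed, 9 lay under 1 TPM in both libraries at 144 h, and such members could be tested only through their values at 0 h. T, the Brachyury factor, stood at 18.8 and 18.3 TPM at 0 h and 2.34 and 2.25 TPM at 144 h (-2.57 ± 0.12 SE, adjusted p = 1.18e-07). Eomes went from 8.11 and 9.52 TPM to 2.25 and 2.09 TPM, and Mixl1 from 3.18 and 3.19 TPM to 0.145 and 0.115 TPM. Both the ligand gene Wnt3 (-1.67) and Gsc (-1.43) were lower. The single call in the other direction, that of Cdx1 (0.43), was lost whichever of the 4 libraries was left out (0.39 to 0.48). Of 9 tested primitive endoderm genes, 6 fell and 1 rose (median -1.12). Those with the largest falls, Col4a1, Col4a2, Sparc and Pdgfra, are also expressed by fibroblasts, whereas the endoderm factors Gata4 (0.07) and Gata6 (-0.21) lay at about 1 TPM and were not called. Trophoblast genes followed the same direction, with 5 of 7 lower and none higher. Among them were the keratin genes Krt8 (-1.43) and Krt18 (-0.85) and the transcription factor gene Tfap2c, which went from 50.6 and 60.2 TPM to 23.4 and 26.1 TPM (-1.13).

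Targets of signalling pathways were examined next. FGF signals through ERK, and its feedback inhibitors are direct readouts of the pathway. Of 15 tested genes, 8 rose and 5 fell. The inhibitors rose, with Spry4 at 47.5 and 48.3 TPM and 149 and 139 TPM (1.57), Spred2 (0.81), Spred1 (0.79), Spry2 (0.73) and Dusp6 (0.69). The immediate-early genes fell. Egr1 went from 56 and 62.4 TPM up to 106 and 100 TPM at 72 h and down to 33.4 and 35.8 TPM at 144 h (-0.76 against 0 h and -1.55 against 72 h, adjusted p = 0.000121 and 3.54e-06). Fos had the same course, with 31.3 and 38.1 TPM, 74.9 and 72.5 TPM and 19.4 and 21.7 TPM. Ier3 (-1.34) and Fosl1 (-1.35) were also lower. Of 13 tested BMP genes, 9 did not pass the test, 3 fell and 1 rose (5 and 2 under median-ratio scaling). Id3, a target that blocks differentiation, fell most, with 91.1 and 92.5 TPM and 26.7 and 27.4 TPM (-1.73). Id1 (0.01) and Id2 (-0.20) were not called. Among 16 tested Wnt genes, 7 rose and 5 fell, with 4 higher without replicate 1 at 144 h. Lef1 and the secreted inhibitor gene Notum (1.20) rose, and Lgr5, a receptor of stem cells, fell from 4.19 and 5.43 TPM to 0.169 and 0.263 TPM (-2.25).

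Most tested members of the Myc network, whose depletion also pauses ES cells, were higher. Myc itself went from 49.9 and 51 TPM through 122 and 117 TPM at 72 h to 81.8 and 78.3 TPM (0.66 against 0 h, -0.58 against 72 h), and Mycn, the more abundant member, stood at 136 and 145 TPM and 156 and 155 TPM (0.14, not called). The antagonists that compete for the partner Max were higher, with Mnt at 0.76, Mxd1 at 0.76 and Mxd3 at 0.98. In all, 7 of 11 tested members rose. The single fall, that of Mxd4 (-0.47), was not called without replicate 2 at 0 h (-0.33) or replicate 2 at 144 h (-0.38).

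Within the mTOR pathway itself, components and inhibitors did not move as a group. Of 27 tested genes, 12 rose (7 without replicate 1 at 0 h) and 7 fell, and the median was 0.01, with a sign that changed with the scaling of the libraries. Of the kinase complexes, Mtor rose from 19.4 and 20.9 TPM to 34 and 31.1 TPM (0.67), and Rictor, which defines the second complex, by 0.62. Deptor, an inhibitor bound to both complexes, went from 8.10 and 8.21 TPM to 18.2 and 15.5 TPM (0.96). Tsc2 and Tsc1, which restrain the pathway upstream, rose by 0.65 and 0.43. Other inhibitors fell. Ddit4 (Redd1), which is induced by stress, stood at 38.8 and 38.2 TPM at 0 h and 9.82 and 9.54 TPM at 144 h (-1.89, adjusted p = 3.51e-07), and Castor1, a sensor of arginine, at 38.3 and 41 TPM and 11.3 and 12.4 TPM (-1.66). The kinase gene Akt1 fell by 1.04. Eif4ebp1, whose product binds the cap-binding factor when mTOR is inactive, fell from 119 and 126 TPM to 78.9 and 78.4 TPM (-0.63), and its relative Eif4ebp2 was not called (-0.03).

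Tfe3 is released when mTOR is inactive and binds the sequence CACGTG in promoters of lysosomal genes. The Tfe3 transcript stood at 58.4 and 65.7 TPM at 0 h and 71.7 and 80.9 TPM at 144 h and was not called (0.29, adjusted p = 0.0542). It was called under 5 of the other settings, with limma adjusted p between 0.0121 (protein-coding scaling) and 0.0363 (replicate block). Tfeb fell (-0.53). The genes of the folliculin complex, which returns both factors to the cytoplasm, rose, with Flcn at 0.65 and Fnip1 at 0.68. Of the Ragulator scaffold, Lamtor4 (-0.94) and Lamtor1 (-0.44) fell. Gpnmb, often used as a readout of Tfe3, stood at 18 and 19.7 TPM at 0 h, 19 and 19 TPM at 72 h and 1.13 and 1.13 TPM at 144 h (-3.22 against 0 h). This course was shared by macrophage genes such as Lyz2 and Cd14, and whether the Gpnmb transcripts came from ES cells was not tested.

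Lysosomal genes divided into members that rose and members that fell. Of 30 tested hydrolases and membrane proteins, 8 were higher and 15 lower, against 27.4% and 24.8% of all genes (median -0.24, and -0.15 without replicate 2 at 0 h). The proteases Ctsf and Ctsl rose, Ctsf from 7.20 and 8.11 TPM to 22.6 and 21.4 TPM (1.41) and Ctsl from 111 and 126 TPM to 185 and 181 TPM (0.63). Mcoln1, the calcium channel of lysosomes, rose by 0.71. Ctsb, a protease that is abundant in macrophages and fibroblasts, fell from 73.5 and 79.7 TPM to 23.5 and 24.2 TPM (-1.64). Cd63 (-1.31), Lipa (-1.36), Ctsd (-0.78) and Psap (-0.67) fell with it, in the same libraries in which the macrophage and fibroblast sums fell. Whether these lysosomal transcripts came from ES cells or other cells was not tested. Most of the 16 tested subunits of the vacuolar ATPase, the proton pump of the lysosome, did not pass the test. 4 were higher, 3 lower and 9 not called, and these counts went to 2 higher without replicate 1 at 0 h and to 0 lower without replicate 1 at 144 h. The promoter of Ctsf, the lysosomal gene that rose most, is shown with its CACGTG in capitals (RefSeq, GRCm38.p6, chr19:4854915-4855214, plus strand).
Ctsf: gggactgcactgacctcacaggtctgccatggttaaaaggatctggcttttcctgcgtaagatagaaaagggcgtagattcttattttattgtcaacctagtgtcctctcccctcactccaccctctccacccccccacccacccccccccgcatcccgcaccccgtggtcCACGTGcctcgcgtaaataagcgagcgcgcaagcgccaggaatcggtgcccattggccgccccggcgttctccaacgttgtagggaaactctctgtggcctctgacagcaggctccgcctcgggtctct
The sequence CACGTG, which reads the same on both strands, was found in the promoter windows of 52.2% of the 23 lysosomal genes with a RefSeq promoter, against 11.99% of all 9978 tested genes. Among called genes it was found for 12.5% of the higher and 11.1% of the lower genes, and past a 2-fold change for 12.04% of the higher and 7.955% of the lower.

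Autophagy genes had shares near those of all genes (27.4% higher and 24.8% lower), with 9 of 26 higher (5 without replicate 1 at 0 h or replicate 2 at 144 h) and 7 lower. The receptors that deliver cargo to autophagosomes showed the widest range. Calcoco2 (Ndp52) fell from 70.9 and 78 TPM to 4.67 and 3.90 TPM (-3.84 ± 0.12 SE, adjusted p = 1.06e-08) and had already stood at 4.68 and 6.07 TPM at 72 h. Sqstm1 (p62) fell by 0.62. Optn rose from 5.83 and 6.02 TPM to 15.2 and 15.5 TPM (1.24), Calcoco1 by 0.94 and Nbr1 by 0.48. Bnip3, a receptor for mitochondria, was higher (0.70) after a lower value at 72 h. Ulk1, the kinase that mTOR restrains at the start of autophagy, rose slightly (0.32).

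Lipid synthesis was lower at 144 h, and several of its genes had been lower still at 72 h. Of 20 tested enzymes of sterol synthesis, 16 fell and none rose (median -0.57). Fdps, which makes farnesyl diphosphate, stood at 154 and 165 TPM at 0 h, 71 and 68.6 TPM at 72 h and 87.5 and 88.5 TPM at 144 h (-0.85 against 0 h and 0.33 against 72 h, adjusted p = 4.12e-06 and 0.00565). Idi1 (-0.84) and Dhcr7 (-0.86) fell by a similar amount, while Cyp51 (0.05) was not called. Lss (-0.18) was called lower without replicate 1 at 0 h (-0.29). Srebf1, a master regulator of lipid synthesis, fell (-0.61), whereas Srebf2, which governs the sterol genes, did not pass the test (0.07). The promoter of Hmgcs1, at -0.38 (not called without replicate 2 at 0 h, -0.32, or replicate 2 at 144 h, -0.35), was the only one among 15 sterol synthesis genes with a RefSeq promoter to hold the sterol element TCACCCCAC (RefSeq, GRCm38.p6, chr13:119690101-119690400, plus strand, element in capitals).
Hmgcs1: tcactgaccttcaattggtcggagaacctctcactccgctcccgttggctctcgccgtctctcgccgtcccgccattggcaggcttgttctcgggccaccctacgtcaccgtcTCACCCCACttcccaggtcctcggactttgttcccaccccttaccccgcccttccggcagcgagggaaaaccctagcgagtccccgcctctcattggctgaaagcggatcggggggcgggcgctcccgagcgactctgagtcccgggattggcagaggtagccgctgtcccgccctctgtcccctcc
Of all tested genes with a promoter, 0.681% held this element on either strand.

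In fatty acid metabolism the desaturases fell most. Scd1 stood at 34.9 and 38.7 TPM at 0 h, 6.51 and 7.06 TPM at 72 h and 11.3 and 10.4 TPM at 144 h (-1.67 ± 0.14 SE, adjusted p = 7.6e-06). Scd2, the more abundant paralogue, went from 209 and 228 TPM through 64.7 and 64.2 TPM to 109 and 105 TPM, and Fads2 from 38.5 and 41.2 TPM through 8.09 and 10.2 TPM to 13.8 and 13.8 TPM. All 3 were higher at 144 than at 72 h (0.61, 0.72 and 0.55). Acaca, which makes malonyl-CoA, fell by 0.54, and Fasn (0.07) and Acly (0.11) were not called. Cpt1a, the gate of fatty acid oxidation in mitochondria, rose from 13.7 and 16 TPM to 24.2 and 23.5 TPM (0.65), whereas the oxidation enzymes Acadm (-0.62) and Acadl (-0.47) fell. In all, 2 of 22 tested members were higher and 10 lower.

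Several glycolysis genes were lower at 72 h than at either other time. Ldha, which turns pyruvate into lactate (ENSMUSG00000063229.15, chromosome 7, 46841475 to 46855627), stood at 1045 and 1166 TPM at 0 h, 216 and 209 TPM at 72 h and 447 and 449 TPM at 144 h. It was thus lower than at 0 h (-1.30 ± 0.06 SE, adjusted p = 2.03e-07) and higher than at 72 h (1.07, adjusted p = 3.02e-06). Tpi1 and Pgk1, enzymes of the lower pathway, had the same course, with 308 and 331, 93.1 and 93.1 and 196 and 208 TPM for Tpi1 and 379.6 and 391, 147 and 147 and 299.7 and 296 TPM for Pgk1. The glucose transporter gene Slc2a1 crossed its starting level, from 137 and 141 TPM through 65.7 and 64.8 TPM to 175 and 182 TPM (0.36 against 0 h, adjusted p = 0.000944, and 1.44 against 72 h, adjusted p = 3.84e-07). Pfkl and Pfkp, isoforms of phosphofructokinase, were also higher at 144 than at 72 h (0.94 and 0.97). Slc2a3, a second transporter, rose from 209 and 228 TPM to 349.9 and 378 TPM (0.74). Pdk1, which keeps pyruvate out of the mitochondria, rose by 0.86 and Ldhb by 0.71. Hexokinases moved apart, Hk1 falling from 23.8 and 27.6 TPM to 9.61 and 9.41 TPM (-1.34) and Hk2 rising (0.47). Over the 25 tested genes of glycolysis and pyruvate use, 8 were higher (5 without replicate 1 at 0 h or replicate 2 at 144 h) and 11 lower than at 0 h.

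**Figure D4:**
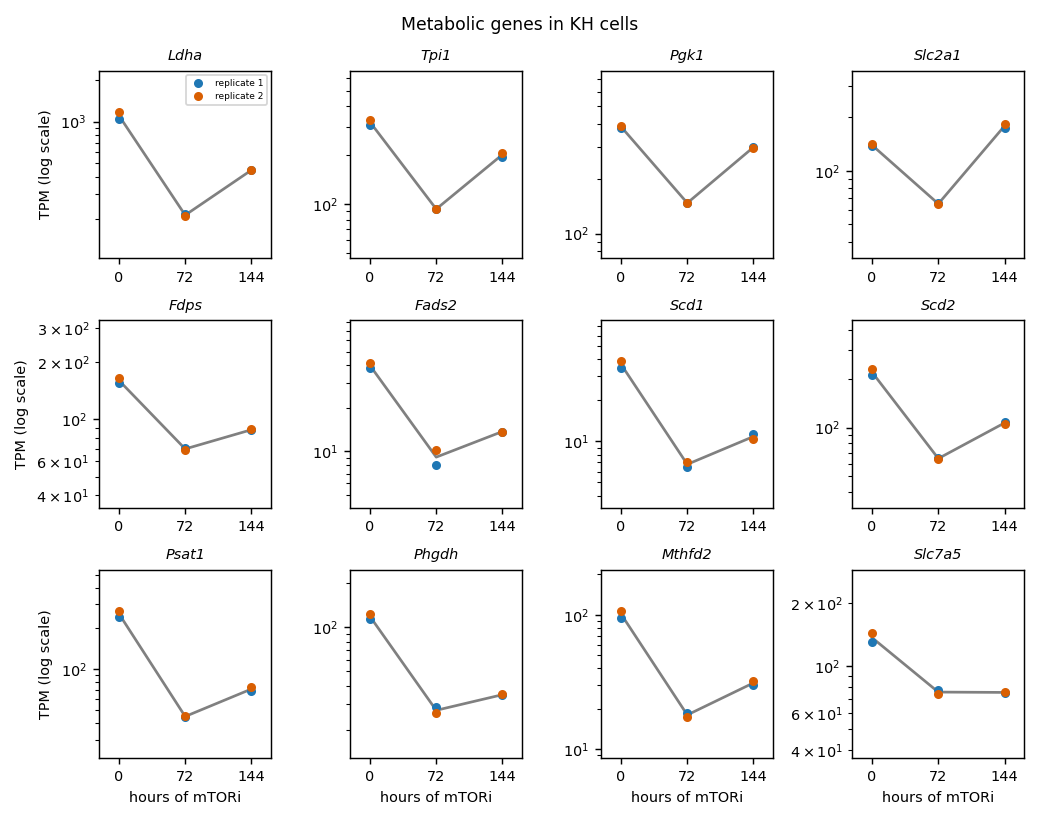
TPM (y axis, log scale) in each KH library at 0, 72 and 144 h (x axis) for 12 genes of glycolysis, lipid synthesis and amino acid synthesis, with a point per library and a line through the mean of the 2 libraries. Ldha, Tpi1, Slc2a1 and Scd2 were lowest at 72 h and higher at 144 h, and Psat1 and Phgdh stayed far under their level at 0 h.

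In the respiratory chain, 15 of 35 tested nuclear subunits were lower and 1 higher (0 with any of the 4 libraries left out or with the replicate block, median -0.18). Uqcrq of complex III fell most, from 109 and 119.9 TPM to 45.9 and 47.7 TPM (-1.27), followed by Ndufa2 (-0.72) and Cycs, cytochrome c (-0.68). Most of these genes are short, and short genes as a class were lower at 144 h, as described below. After the median of protein-coding genes of similar exon length (1 of 5 classes) was subtracted, the median of the list was -0.06. Of the 13 proteins made by the mitochondrial genome only mt-Nd6 was called (-0.74), and not without replicate 1 at 0 h (-0.56) or replicate 2 at 144 h (-0.64), and mt-Co1 stood at 4178 and 5249.9 TPM and 4752 and 4935 TPM. Mitochondrial ribosomal proteins fell in 15 of 31 tested cases (9 without replicate 1 at 144 h) and rose in none (1 without replicate 2 at 0 h). Their median was -0.17 (-0.31 without replicate 1 and -0.11 without replicate 2 at 0 h, and -0.21 after the subtraction). Mrpl12 was an example, with 119 and 124 TPM and 74.9 and 76.2 TPM (-0.68).

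Cytosolic ribosomal proteins, by contrast, took a larger share of the RNA at 144 h. Of 52 tested genes, 26 rose, with a median of 0.21. The count was 15 without replicate 1 at 0 h and 13 and 12 without replicates 1 and 2 at 144 h. The single fall, that of Rplp0 (-0.25), was not called without replicate 2 at 0 h (-0.15) or either library at 144 h (-0.24 and -0.26). The changes were small, at most 0.57 for Rps24. Rps19 went from 1004 and 983 TPM to 1335 and 1364 TPM (0.44). Their mRNAs start with a terminal oligopyrimidine tract, by which mTOR controls their translation, and TPM does not show translation. Other carriers of this tract among the translation factors moved in both directions. Eef1a1 (0.58) and Eef2 (0.48) rose, whereas Pabpc1, given below, fell. Over the list 11 of 33 fell (7 without replicate 2 at 0 h or replicate 1 at 144 h, and 18 under median-ratio scaling) and 4 rose. Eif3b, Eif5a and Eef1d fell (log2 fold changes -0.44, -0.50 and -0.71). Pabpc1, the poly(A)-binding protein gene, which also carries the tract, fell by 0.49. Of 15 tested snoRNA hosts, 6 fell and 1 rose (0 with any of the 4 libraries left out or with the replicate block), and Gas5, the best known of them, was not called (-0.07). Genes of RNA polymerase I and ribosome assembly had a median of 0.001, with 6 of 34 higher (3 without replicate 1 at 0 h or either library at 144 h) and 8 lower (3 without replicate 2 at 0 h or replicate 1 at 144 h and 5 without replicate 2 at 144 h). The catalytic subunit gene Polr1a rose (0.48), while Npm1 (-0.13) and Ncl (-0.14) were not called.

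Proteasome genes were lower by a small amount. Of 30 tested subunits and assembly factors, 24 were lower and none higher (median -0.32, and -0.19 after subtraction of the median for genes of the same length). Psmd14, the deubiquitinase of the lid, went from 169 and 177 TPM to 117 and 118 TPM (-0.55), and the range over the list was -0.55 to 0.01.

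The amino acid stress programme of Atf4 was lower. Of 21 tested genes 17 were lower and 2 higher (1 with the replicate block), with a median of -1.17, and 11 of them fell at least 2-fold. Enzymes of serine synthesis were strongly lower. Psat1 stood at 243 and 269 TPM at 0 h and 68.8 and 73.2 TPM at 144 h (-1.83 ± 0.08 SE, adjusted p = 8.82e-08), Phgdh at 114 and 123 TPM and 34.6 and 34.8 TPM (-1.74), and Psph fell by 1.35. Mthfd2, of mitochondrial one-carbon metabolism, fell from 95.1 and 108 TPM to 30.1 and 32.1 TPM (-1.67). The stress genes Trib3 (-1.64), Chac1 (-1.22) and Nupr1 (-3.38) fell too, and so did the amino acid transporter gene Slc7a5 (-0.86). The transcript of Atf4 itself, whose protein is controlled through translation, stood at 221 and 234 TPM and 251 and 259 TPM (0.16, limma adjusted p = 0.0317), a call that was lost without replicate 1 at 0 h (0.12), without either library at 144 h (0.18 and 0.14) and with the replicate block (limma adjusted p = 0.0721). Slc7a3, a transporter of arginine, also rose (0.47). Psat1, Phgdh and Mthfd2 were a little higher at 144 than at 72 h, by 0.66, 0.34 and 0.76.

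Replication and mitosis genes did not fall as groups. Of 35 tested replication genes, 23 did not pass the test, 9 were higher and 3 lower (6 under median-ratio or protein-coding scaling), and the median was 0.02. The polymerase gene Pole rose by 0.58 and the helicase subunit gene Mcm7 by 0.42, whereas Rrm2, a subunit of ribonucleotide reductase, fell from 237 and 253 TPM to 142 and 146 TPM (-0.76). Mitosis genes were higher in 17 of 30 cases (11 without replicate 1 at 0 h) and lower in 1 (median 0.25), against 27.4% and 24.8% of all genes. Mki67, a widely used marker of cycling cells, stood at 55.4 and 59.7 TPM at 0 h and 115 and 95.5 TPM at 144 h (0.85 ± 0.12 SE, adjusted p = 0.000204). Ect2 (0.83), Cenpf (0.78), Ttk (0.75) and Top2a (0.52) rose as well. Ccnb1 (-0.03) and Plk1 (0.07) were not called. Aurka was the single gene called lower (-0.16), and not without replicate 2 at 0 h (-0.11) or either library at 144 h (-0.14 and -0.18), nor with the replicate block (limma adjusted p = 0.0708). The promoter of Mki67 is shown because cell-cycle promoters are known for repeated CCAAT boxes (RefSeq, GRCm38.p6, chr7:135716330-135716629, minus strand). Capitals mark its 3 matches, of which ATTGG is CCAAT on the opposite strand.
Mki67: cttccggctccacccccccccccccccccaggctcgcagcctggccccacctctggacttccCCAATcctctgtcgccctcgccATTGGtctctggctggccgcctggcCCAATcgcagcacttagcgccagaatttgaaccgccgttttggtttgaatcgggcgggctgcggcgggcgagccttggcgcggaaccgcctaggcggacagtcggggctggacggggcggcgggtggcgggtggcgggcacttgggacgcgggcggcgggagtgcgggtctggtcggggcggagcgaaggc
CCAAT on either strand was found in 79.2% of the 24 mitosis genes with a RefSeq promoter, against 44.0% of all tested genes with a promoter, 45.6% of the higher and 43.4% of the lower genes.

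Regulators of the G1 phase did not move as a group. Of 23 tested cyclin and inhibitor genes, 8 were lower, 4 higher and 11 not called (median -0.07). Over all genes, 24.8% were lower and 27.4% higher. The cyclin genes Ccnd1 (139 and 152 TPM and 81.6 and 79.98 TPM), Ccnd2 (79.6 and 87.9 TPM and 38.3 and 37.5 TPM) and Ccnd3 (153 and 173 TPM and 88.6 and 89.9 TPM) fell (log2 fold changes -0.84, -1.12 and -0.86). Ccne1 fell by 0.51. Of the inhibitors of cyclin-dependent kinases, Cdkn1a (p21) fell from 90.5 and 98.6 TPM to 26.1 and 23.1 TPM (-1.90), and Cdkn2b (-2.13) and Cdkn2a (-1.01) fell too, whereas Cdkn1b (p27, 0.56) and Cdkn1c (p57, 0.73) rose. Cdkn1a, Ccnd2 and the Cdkn2 genes are expressed by fibroblasts as well, and their origin was not tested. Targets of p53 were lower in 12 of 20 tested cases and higher in 4 (median -0.38). Ccng1 went from 132 and 143 TPM to 60.5 and 61 TPM (-1.17) and Mdm2 fell by 0.48. Of the Bcl2 family, which decides on cell death, the proapoptotic gene Bmf rose from 4.32 and 5.12 TPM to 20.8 and 20.04 TPM (1.91) and Pmaip1 (Noxa) by 0.63. The survival gene Mcl1 rose from 241 and 256 TPM to 410.3 and 411 TPM (0.72), and its relative Bcl2l1 fell (-0.46). The effector Bak1 fell (-0.66) and Bax was not called (-0.09).

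Replication-dependent histone genes were higher in 21 of 26 cases and lower in none (median 0.41). The count of higher genes was 11 without replicate 1 at 0 h and 12 without replicate 2 at 144 h. Hist1h1a, a linker histone, went from 819 and 820.4 TPM to 1156 and 1152 TPM (0.49) and Hist1h4d, a histone H4 gene, from 534 and 603 TPM to 853 and 853 TPM (0.59). Histone copies are nearly identical, so reads can be shared among them. The 5 genes above 10 TPM with the widest gap between both libraries at 144 h were H1fx, Hist3h2a, Hist2h2aa1, Ywhaq-ps3 and Hist2h3c1. H1fx was listed at 0 TPM in replicate 1 at 144 h and at 40.9 TPM in replicate 2, and Hist2h2aa1 stood at 94.4 and 583 TPM. None of these 5 genes was called, although Hist3h2a was called lower without replicate 2 at 144 h (-3.61) and higher without replicate 1 at 144 h (0.49, limma adjusted p = 0.00275).

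The DNA methylation machinery changed in composition. Dnmt3b, the de novo enzyme most abundant in these cells, fell from 255 and 258 TPM to 142 and 147 TPM (-0.82). Dnmt3a stood at 57.7 and 54.7 TPM at 0 h and at 76.3 and 144 TPM at 144 h. It was called higher (0.89, adjusted p = 0.0232), but the call was lost without replicate 2 at 144 h (0.44, limma adjusted p = 0.204) and without either library at 0 h (0.93 and 0.85). The cofactor gene Dnmt3l rose (0.54), as did Dnmt1 (0.35). The demethylases Tet1 and Tet2 rose from 99.8 and 101 TPM to 234 and 184 TPM (1.04) and from 40.1 and 43.6 TPM to 87.3 and 76.1 TPM (0.94), and Tet3 (0.23) was called only without replicate 2 at 144 h (0.38). Polycomb genes, which silence developmental genes, were higher in 14 of 25 tested cases and lower in 4 (median 0.32). Only 1 was called lower without replicate 2 at 0 h or replicate 1 at 144 h, and 2 without replicate 2 at 144 h. Kdm2b, which recruits the first complex to CpG islands, went from 33.3 and 35.7 TPM to 73 and 74 TPM (1.07) and Phc1 from 156 and 166 TPM to 301 and 302 TPM (0.90). Phf19, an accessory factor of the second complex, was the largest exception, with 11.2 and 12.9 TPM and 2.96 and 3.15 TPM (-1.69).

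Germline genes, many of which are silenced by promoter methylation and Polycomb in ES cells, rose. Of 21 listed genes 15 were abundant enough to be tested, and 11 of these were higher and none lower (median 0.70). Next to Stra8, the synaptonemal genes Sycp3 and Sycp1 rose from 2.89 and 3.89 TPM to 10.6 and 10.9 TPM (1.43) and from 1.67 and 1.28 TPM to 3.79 and 3.24 TPM (0.87). Dazl, an RNA-binding protein of germ cells, rose by 1.12 and Hormad1 by 0.97. Ddx4 (0.10) and Mov10l1 (0.21), of the piRNA pathway, were not called. A filter on the mean lets genes that are low at 1 time through only when they are higher at the other. This holds for rises here and for falls in other lists, so the count of tested members is not a count of all members. Of the 2-cell-like genes, which mark a rare state of ES cells, only the copies Zscan4c, Zscan4e and Zscan4f reached the filter, at 0.350 to 0.986 TPM at 0 h and 1.48 to 2.64 TPM at 144 h. Reads of these copies cannot be told apart with certainty. Imprinted genes went in both directions, with 9 of 22 higher and 8 lower (5 without replicate 2 at 0 h), against 27.4% and 24.8% of all genes. The maternally expressed noncoding RNAs Meg3 and Mirg of the same cluster rose by 1.17 and 1.82, Meg3 from 113 and 125 TPM to 242 and 299 TPM. H19 fell from 21.7 and 26.3 TPM to 9.99 and 9.86 TPM (-1.19), and its neighbour Igf2 fell by 1.01. The fibroblast sum fell in the same libraries, and the origin of the H19 and Igf2 transcripts was not tested.

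Interferon and antigen presentation genes fell, with 14 of 19 tested members lower (9 without replicate 2 at 0 h) and none higher (median -0.40). B2m, the light chain of MHC class I, stood at 77.8 and 98.7 TPM at 0 h and 9.94 and 15.3 TPM at 144 h (-2.73 ± 0.22 SE, adjusted p = 5.82e-06). The heavy chain gene H2-D1 fell by 1.14. Fibroblasts and macrophages are known to express these genes more than ES cells do. Their markers fell in the same libraries, and the origin of the interferon and antigen presentation transcripts was not tested. The sums over the list were 953 and 1258 TPM and 937 and 961 TPM, most of it from the Ifitm genes. Ifitm2 was not called (0.59), but was higher without replicate 2 at 0 h (1.10). The Ifitm genes are close copies.

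Across tested protein-coding genes, the direction of change moved with exon length. This length joins all annotated exons of a gene over its transcripts, so it can exceed that of the transcript expressed. The 12362 tested protein-coding genes were split into 5 equal groups by exon length. In the group of the shortest (up to 2446 bases), 19.7% were higher and 38.9% lower, with a median of -0.15. In that of the longest (from 7631 bases) 35.7% were higher and 18.7% lower, with a median of 0.16, and the medians of the other groups lay in order between them. The same trend was seen in DNMT3ABKO cells, from -0.13 to 0.12, where 56.5% of all genes were called (29.4% higher and 27% lower). The response of the lines differed for 5.97% of genes, with 2.72% higher and 3.25% lower in DNMT3ABKO cells. Between replicates the corresponding medians lay between 0.09 and 0.11 at 0 h, and between -0.05 and 0.02 at 144 h, so the trend between time points was wider than that between libraries of a group. The part of length in the results for lists of short genes, such as respiratory subunits and the proteasome, or for other lists was not tested beyond the subtracted medians given. Mitosis genes were of middle length, with a median of 4798 bases against 4433.5 for all tested protein-coding genes. For mitosis the median was 0.25 before and 0.25 after subtraction, for Atf4 targets -1.17 and -1.02, and for naive factors 0.61 and 0.54. Several gene types other than protein-coding leaned towards higher values, but not the largest of them. Of 1215 processed pseudogenes 15.4% were higher and 14.5% lower (median 0.02). Of 345 microRNA genes 27.2% were higher and 27.0% lower (median 0.24). Of 290 long intergenic RNAs 42.1% were higher and 16.2% lower (median 0.31), and of 90 small nuclear RNA genes 31.1% were higher and none lower. Among protein-coding genes, chromosome medians lay between -0.07 and 0.10, apart from the 4 tested genes of the Y chromosome, which were all higher (median 0.66).

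**Figure D5:**
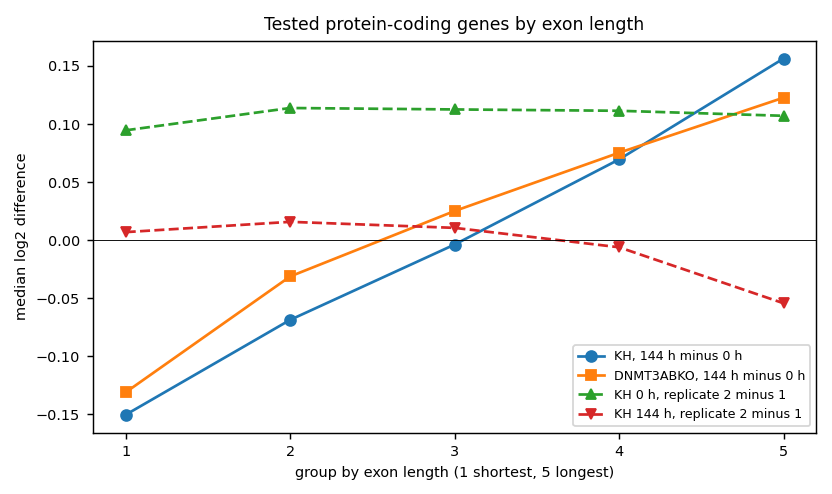
Median log2 difference (y axis) of tested protein-coding genes in 5 equal groups by exon length (x axis, 1 shortest to 5 longest) for KH 144 h minus 0 h, for DNMT3ABKO 144 h minus 0 h, and for replicate 2 minus replicate 1 within KH 0 h and KH 144 h. Both time comparisons climb from the shortest to the longest group, from -0.15 to 0.16 in KH cells, while the differences between replicates are nearly flat.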

How the data were processed

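RNA-seq of KH and DNMT3ABKO ES cells was analysed at 0, 72 and 144 h of mTORi, with 2 libraries per group and 12 in all. Per the labels and processing notes, the authors trimmed reads (cutadapt 2.4), aligned them to mm10 (STAR 2.7.3a) and deposited TPM values per gene (StringTie 2.0). TPM are length-corrected shares of a library, so depth is unknown, no counting interval can be given and total RNA per cell was not analysed here. Values of repeated gene identifiers were summed. Genes whose mean TPM in the 4 KH libraries of 0 and 144 h reached 1 were tested on log2(TPM + 1) with limma 3.58.1 in R 4.3.3 (trend, all 12 libraries, a coefficient per group, Benjamini-Hochberg adjustment, called under 0.05). Fold changes on this scale understate the change of low genes. The same fit gave 144 h against 72 h, in which 23.1% of genes were called, and a test of whether both lines responded differently, in which 5.97% were called. An exact permutation of 2 against 2 libraries cannot give p under 0.333.

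Gene lists were described by counts and medians, without a test. Members and lists were chosen with earlier results of these data known. Genes named by rule were the 15 highest and 15 lowest called genes whose libraries did not overlap (without predicted genes, clone names, pseudogenes and small RNAs), the 8 largest gains and 8 largest losses in TPM (same exclusions), and the 5 genes of at least 10 TPM with the widest gap between the 144 h libraries. Other genes were named from the lists after their values were seen. Of the listed symbols, 10 were not matched in the files. Promoters (250 bases before to 50 after the start) came from RefSeq (GRCm38.p6), and 9978 of the 15423 tested genes had one. The limma step was tested on simulated data. Alternatives were another pseudocount, no filter, other scalings, fewer libraries in the model, a replicate block and leaving out each library. According to the study, the time points of a replicate were handled side by side, so replicate numbers may mark a shared batch. Deviations of same-numbered libraries correlated with r of 0.08 between KH 0 h and KH 144 h. Between KH and DNMT3ABKO cells at 0 h this r was 0.33, the highest of all pairs of groups. Calls that the block changed are given with it. Scaling by protein-coding genes and centring by length were added after seeing the data.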

Additional observations from a re-analysis of the deposited data

Results flagged for a closer look

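The response from 0 to 144 h differed between KH and DNMT3ABKO cells for 60 of the 267 tested genes named above (limma, test of the difference itself, adjusted p under 0.05). Over all tested genes this difference was called for 5.97%. Named genes were picked by large changes or after their values were seen, so their share cannot be compared with that over all genes. Differences are given as the DNMT3ABKO log2 fold change minus that of KH cells, and their cause was not tested. The DNMT3ABKO line is a single line, so its lack of both enzymes and other properties of the line cannot be told apart.

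The widest differences among named genes were those of the Zscan4 copies, which rose by 0.94 to 0.98 on the log2 scale in KH cells and by 3.45 to 3.57 in DNMT3ABKO cells (2.51 for Zscan4c, 2.53 for Zscan4e and 2.62 for Zscan4f). Of the germline genes named, Stra8, Dazl and Sycp1 rose more in DNMT3ABKO cells, by 1.05 for Stra8, 1.58 for Dazl and 1.27 for Sycp1. Of the early neural factors, Pax6 and Sox1 rose less in DNMT3ABKO cells, with differences of -2.18 for Pax6 (adjusted p = 0.00112) and -1.35 for Sox1 (adjusted p = 0.00077). Pax6 rose by 2.94 in KH cells and stood at 0.75 in DNMT3ABKO cells. The desaturase gene Fads2 fell further in DNMT3ABKO cells (-1.61 for Fads2).

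Changes that were positive in both lines and larger in DNMT3ABKO cells gave differences of 0.40 for Dnmt3l, 0.46 for Dusp6, 0.49 for Myc, 0.92 for Pmaip1, 0.93 for Slc47a1 and 0.60 for Spry2. To these are added 0.67 for Spry4 and 0.61 for Tdgf1. Positive in both lines but smaller in DNMT3ABKO cells were the changes with differences of -0.83 for A2m, -0.56 for Atp1a4, -0.66 for Capn3, -0.65 for Optn, -0.65 for Prmt8 and -0.81 for Sall3. Smaller too was the change with -0.87 for Zic2.

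Negative in both lines and further from 0 in DNMT3ABKO cells were the changes with differences of -0.50 for Castor1, -0.66 for Ccnd1, -0.64 for Dppa3, -0.47 for Fdps, -0.84 for Fn1 and -0.74 for Hk1. The same held with -0.46 for Pgk1, -0.80 for Rrm2, -0.95 for Scd1 and -0.89 for Scd2. To these are joined -0.59 for Srebf1, -0.49 for Tpi1 and -0.46 for Vim. Also negative in both lines, but nearer to 0 in DNMT3ABKO cells were the changes with differences of 0.53 for Acta2, 0.57 for Ccng1, 1.12 for Cd14, 0.73 for Eomes, 1.01 for Fgf5 and 0.99 for Gpnmb. Nearer to 0 as well were those with 0.45 for H2-D1, 1.23 for Lyz2, 0.89 for Mixl1, 0.60 for Mthfd2, 0.47 for Psmd14 and 0.55 for Sqstm1. The others of this kind had 0.52 for Uqcrq and 0.97 for Wnt3.

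The estimates had opposite signs in the 2 lines for genes with differences of -0.79 for Cyp51, 1.22 for Egr1, -0.45 for Fasn, 0.40 for Gas5, -2.09 for Hist1h2br and -1.24 for Ldhb. Opposite signs were also found with -0.73 for Mycn, 0.51 for Pabpc1 and -0.44 for Srebf2.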

How the results depend on the processing

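The counts over all genes held within 1.5 times under every alternative run, except that 983 genes rose at least 2-fold with a pseudocount of 0.1 TPM, against 575. Called genes numbered from 6274 to 6891 with 1 library left out and up to 9428 without the filter. The excess of higher genes turned under median-ratio scaling (4359 higher and 4437 lower) and without replicate 1 at 0 h. With the replicate block, 7769 genes were called, and among named genes and lists it changed the calls given with it above and that of Pfkl (0.20, limma adjusted p = 0.0564) and no other. Depth could not be assessed from TPM.

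Under length centring the sign changed for mTOR complexes and regulators (median, -0.028), mitochondrial genome proteins (median, 0.15). Under median-ratio scaling the sign changed for DNA replication (median, -0.020), Id1 (-0.020), RNA polymerase I and ribosome assembly (median, -0.034), Utf1 (-0.024), mTOR complexes and regulators (median, -0.020), vacuolar ATPase (median, -0.021). Under protein-coding scaling the sign changed for DNA replication (median, -0.0011), Id1 (-0.0014), RNA polymerase I and ribosome assembly (median, -0.015), Utf1 (-0.0049), mTOR complexes and regulators (median, -0.0019), vacuolar ATPase (median, -0.0021). With 1 library left out, values that changed sign ranged for Ccnb1 from -0.081 to 0.026, Cd9 from -0.11 to 0.029, Cyp51 from -0.036 to 0.13, DNA replication median from -0.030 to 0.081, Eif4ebp2 from -0.11 to 0.048, Fasn from -0.022 to 0.16. Further ranges were, for Gata4 from -0.11 to 0.26, H1fx from -4.40 to 0.99, Hist2h2aa1 from -1.80 to 0.81, Hist3h2a from -3.61 to 0.49, Id1 from -0.10 to 0.13, Plk1 from -0.044 to 0.17. The others were, for RNA polymerase I and ribosome assembly median from -0.059 to 0.067, Srebf2 from -0.00046 to 0.13, Trim28 from -0.030 to 0.018, Utf1 from -0.074 to 0.10, Ywhaq-ps3 from -0.92 to 0.66, mTOR complexes and regulators median from -0.047 to 0.074. Last, for mitochondrial genome proteins median from -0.12 to 0.21, mt-Co1 from -0.12 to 0.21, vacuolar ATPase median from -0.036 to 0.11, these were the ranges. None of these genes was called in the reported fit. The cause was not tested.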
